A study of Mus musculus with 24 samples.

Results

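The genes described here encode the proteins of the cytosolic ribosome. They were chosen by a rule on gene names, set with earlier results of these data known. The rule takes platform symbols made of Rpl or Rps with a number and at most 1 letter, together with Rplp0, Rplp1, Rplp2 and Rpsa. It leaves out pseudogenes, S6 kinases and the ubiquitin fusion Rps27a. The rule matched 88 probes for 59 genes, of 19057 genes that have a symbol of their own on the array. Of these 59, 54 gave a signal above background on at least 2 of 24 arrays and were tested among 10970 genes, each by its probe with the highest mean. The other 5, Rpl17, Rpl39l, Rps20, Rps23 and Rps4l, were above background on 0 of 24 arrays and have no value below. Rpl39l is a testis-enriched copy of Rpl39, and Rps4l is listed as a transcribed pseudogene. Genes that the table does not hold under such a symbol, Rpl5 and Rpl11 among them, were not analysed here.

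Each ribosome joins a small subunit, which decodes the mRNA, to a large subunit, which forms the peptide bonds, and every protein of both has its own gene. Growing cells make these proteins in matched amounts, and unassembled copies are degraded by the proteasome, the protease complex that bortezomib inhibits. Their mRNAs are among the most abundant in the cell, and many begin with a run of pyrimidines (C or T, a terminal oligopyrimidine tract) through which growth signalling sets how much of them is translated.

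The samples were 4 mouse lines derived from multiple myeloma, a plasma cell tumour. All of them, controls included, carry Bcl-XL and Myc as transgenes on a mixed FVBN and BL/6 background. The labels give no promoter for the transgenes and no origin of resistance. The labels call 595sp and 638bm sensitive and 595sp VR and 638bm VR resistant to the drug. Every line was arrayed untreated and after 2, 8, 16 and 24 h in 33 nM bortezomib, once per time and on 2 arrays at 24 h, so that each arm has n = 2 lines per time and no replicate untreated array of a line. No label says whether arrays came from separate cultures, so p-values measure the spread between these arrays and lines.

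Of 45281 probes, 15257 to 17368 per array exceeded the background (33.7 to 38.4%). Of the plasma cell markers, Xbp1, Irf4, Sdc1, Slamf7 and Mzb1 were above background on 24 of 24 arrays, and Prdm1, Jchain and Tnfrsf17 on 0. Of other cell types' markers, Cd79b, Pax5 and Ms4a1 of B cells were above it on 24, 8 and 3 arrays, and Cd3g, Cd3d and Cd3e of T cells on 12, 7 and 3. Csf1r, Cd14, Itgam and Lyz2 of myeloid cells were above it on 11, 4, 1 and 0, Hba-a1 and Alas2 of erythroid cells on 5 and 0, and of the stroma Pdgfrb on 1 and Col1a1, Col1a2 and Col3a1 on 0. The times of 638bm VR were taken from the titles, from which the timepoint field differs in 4 of 6 samples. On 595sp VR the log2 background was 5.45 on the untreated array and 6.13 to 6.19 on the first arrays under drug. It was 5.45 to 5.54 on the first arrays of 595sp, 5.91 to 6.11 on those of 638bm and 5.86 to 5.98 on those of 638bm VR. On the second 24 h arrays it was 5.97 in 595sp, 5.95 in 595sp VR, 5.898 in 638bm and 5.895 in 638bm VR.

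The bases around the annotated transcription start show which members carry a pyrimidine run. For each of the members below the line gives 10 bases before and 20 bases from the first start in the promoter table (RefSeq, GRCm38.p6), with a run of at least 6 C or T that begins within 10 bases of that start in capitals. Rps6, the substrate of the S6 kinases, and Rpl28 and Rpl35 of the large subunit are shown as members with such a run. Of the 48 members with a promoter, 25 had one at a start. Rps15a, Rps27l, Rpl12, Rpl22, Rpl24 and Rpl3l are shown because the results turn on them.
Rps6, chr4:86857348-86857377, minus strand: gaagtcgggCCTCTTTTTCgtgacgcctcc
Rpl28, chr7:4792955-4792984, plus strand: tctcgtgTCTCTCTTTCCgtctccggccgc
Rpl35, chr2:39005112-39005141, minus strand: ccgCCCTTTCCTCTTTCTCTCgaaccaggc
Rps15a, chr7:118116128-118116157, minus strand: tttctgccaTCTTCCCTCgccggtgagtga
Rpl12, chr2:32961702-32961731, plus strand: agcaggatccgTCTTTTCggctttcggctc
Rps27l, chr9:66946076-66946105, plus strand: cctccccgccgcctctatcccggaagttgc
Rpl22, chr4:152324426-152324455, plus strand: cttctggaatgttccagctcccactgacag
Rpl24, chr16:55966265-55966294, plus strand: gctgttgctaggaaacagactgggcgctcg
Rpl3l, chr17:24727816-24727845, plus strand: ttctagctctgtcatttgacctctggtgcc
Rps6, Rpl28, Rpl35, Rps15a and Rpl12 hold such a run. Rps27l, Rpl22, Rpl24 and Rpl3l hold none that begins within 10 bases of this start. The pyrimidines that open the Rps27l window, in lower case, belong to a run that begins more than 10 bases before the start. RefSeq annotates Rps27l from position 66944624 on, upstream of the window shown, so that window is not at its outermost start. RefSeq promoters were at hand for 48 of the 59 members, and 25 of them had a run at a start (52.1%), against 26.2% of all 27025 genes with a promoter. The letters CGGAAG, searched on both strands over 250 bases before and 50 after the start, were found for 34 of the 48 members (70.8%) and for 18.8% of all genes. CACGTG, the same on both strands, was found for 6 members (12.5%) and 8.09% of all genes.

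Ribosomal protein mRNAs filled the top of the signal range. The probes of 41 of the 54 members were above the 99th percentile of all probes on every array, and 36 had a mean signal over 10000 before normalization. Above background on all 24 arrays were 50 members. The exceptions were Rpl14, Rpl6 and Rpsa, whose log2 signals stayed between 4.37 and 6.53 on all arrays, and Rpl3l, described below. Rpsa encodes a small-subunit protein also known as the laminin receptor precursor. The probes of these genes read near the background, and whether their mRNAs are scarce was not tested.

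In the sensitive lines the members moved little while much of the transcriptome changed. At 2 h 0 of 54 were called by limma (adjusted p under 0.05, over all genes tested), where 0.0547% of all genes were called, and 0 members had an unadjusted p under 0.05. At 8 h 0 members were called against 5.41% of all genes, with 1 at an unadjusted p under 0.05. At 16 h the count was 0 against 9.32%, with 2 at an unadjusted p under 0.05. At 24 h, when 10.1% of all genes were called lower and 13.3% higher, 2 members fell (3.7%) and 0 rose. The SD of the log2 changes over the members was 0.107 at 8 h and 0.201 at 24 h, where over all genes it was 0.405 and 0.559. At 24 h 1 of the 54 members changed by more than 0.5 on the log2 scale in either direction, as did 30.1% of all genes. In a bulk sample, fewer cells of a type and less RNA per cell cannot be told apart, and normalization between arrays removes any change shared by all RNA.

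**Figure D1:**
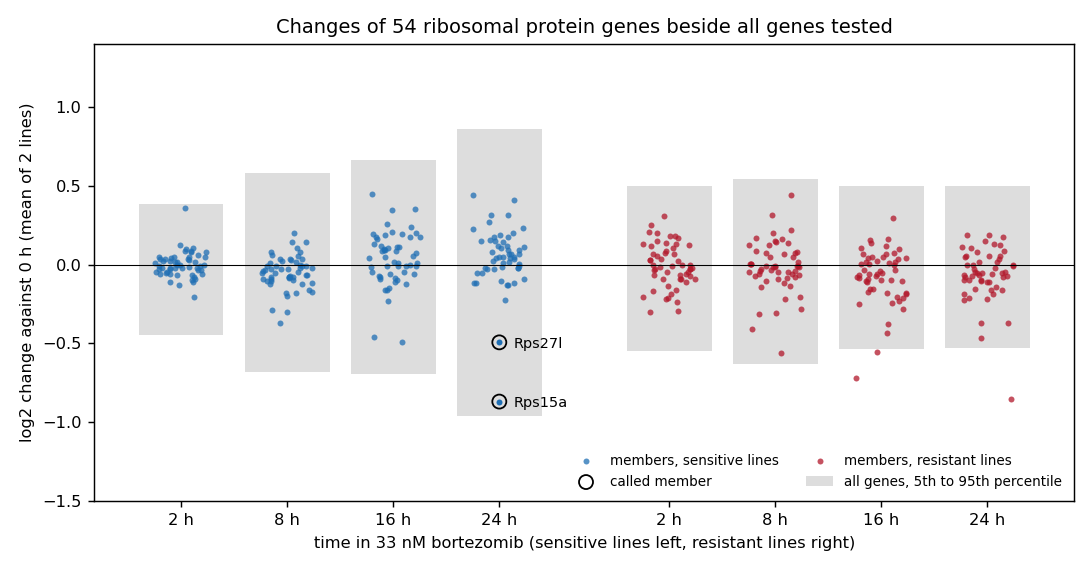
Log2 change of each of the 54 members against untreated cells (y axis, mean of 2 lines) at 4 times in the sensitive lines (blue, left) and the resistant lines (red, right). Grey bars run from the 5th to the 95th percentile of all 10970 genes tested, and circles mark called members. Members lie inside the grey bars except for 2 at 16 h and 1 at 24 h in the resistant lines, and the 2 called members, Rps27l and Rps15a, are lower at 24 h in the sensitive lines.

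The intervals describe the signal of the probe used for each member. At 24 h in the sensitive lines the 95% interval of the change lay within 1 log2 unit of 0 for 52 of 54 members, all but Rpl3l and Rps15a, and within 0.5 for 37. At 8 h all 54 lay within 1 and 42 within 0.5. The median half-width of these intervals was 0.339. They do not bound the change of the mRNA where signals are compressed at the top of the range, which was not tested. Dimmer probes of members went both ways. One of Rpl38, of the large subunit, above background on 24 arrays, was at -0.82 in 595sp and -0.57 in 638bm at 24 h. The brighter one in use was at 0.09 and -0.08. A dimmer probe of Rpl28, also above background on 24 arrays, was at 0.28 in 595sp and 0.62 in 638bm. The brighter one of Rpl28 in use was at -0.03 and 0.11. By subunit, the median change at 24 h was -0.01 over 21 genes of the 40S subunit, 0.06 over 30 of the 60S subunit and 0.02 over the 3 genes of the P stalk. The P stalk is the flexible arm of the large subunit that recruits elongation factors. Rplp0, Rplp1 and Rplp2, its members, changed by 0.09 ± 0.20, 0.02 ± 0.14 and -0.02 ± 0.16 (log2 ± SE, n = 2 lines), and none passed. Rps6 changed by -0.05 ± 0.17 and Rps3, at the entry of the mRNA channel, by 0.08 ± 0.19, and neither passed.

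Most members lie at the bright end of the array, where quantile normalization sets values by rank and repeats them between arrays. A split at a mean log2 level of 13, chosen after the values were seen, puts 39 members and 66 other genes above it. At 24 h in the sensitive lines the SD of the changes was 0.149 over these members and 0.482 over the other bright genes, of which 13 were called (19.7%) and of the members 1. Below that level it was 0.300 over 15 members and 0.560 over 10850 other genes. Above the level of 13 the other genes had the wider spread. Members and other genes were not matched for level there, and the difference between these spreads was not tested.

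Rps27l, a paralogue of Rps27 known as a p53 target, was 1 of the 2 members that fell in the sensitive lines. In 595sp its log2 level was 13.47 untreated, 13.45 at 2 h, 13.43 at 8 h, 13.09 at 16 h, and 12.98 and 12.99 on the 24 h arrays. In 638bm it was 13.53, 13.49, 13.21 and 12.93 at the same times, and 12.93 and 13.13 at 24 h. Both lines were lower on every 16 h and 24 h array than on any earlier one. The change at 24 h was -0.49 ± 0.16 (adjusted p = 0.0345), from -0.49 in 595sp and -0.50 in 638bm. At 16 h it was -0.49 ± 0.16 and did not pass (adjusted p = 0.0628).

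In the resistant lines Rps27l did not pass at any time. In 595sp VR the level was 13.74, 13.46, 13.49 and 13.24 from 0 to 16 h, and 13.48 and 13.30 at 24 h. In 638bm VR it was 12.98, 13.07, 13.08 and 12.91, and 12.97 and 12.92 at 24 h. Untreated 638bm VR lay within the range of the sensitive lines at 24 h. The resistant minus the sensitive change at 24 h was 0.31 ± 0.22 and did not pass (adjusted p = 0.535).

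Rps15a, a protein of the small subunit, was the other member that fell. Its 1 probe was dim for a member, at a mean log2 level of 6.97, where 39 of 54 members were at 13 or more. Whether the probe reports most of the mRNA of Rps15a was not tested. In 595sp its level was 8.17, 7.80, 7.85 and 7.47 from 0 to 16 h, and 6.80 on both 24 h arrays. In 638bm it was 7.19, 7.34, 7.79 and 6.97, and 6.65 and 6.98 at 24 h. Both lines were lower on each 24 h array than untreated, 595sp by more. The change was -0.87 ± 0.22 (adjusted p = 0.00965), with -1.37 in 595sp and -0.37 in 638bm. In the resistant lines the level was 6.25 to 7.09 on all 12 arrays, below all arrays of the sensitive lines before 16 h, and the resistant minus the sensitive change at 24 h of 0.65 ± 0.31 did not pass (adjusted p = 0.302).

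Without 595sp 0 members were called at 24 h in the sensitive arm, and without 638bm Rps15a was called lower and Rpl3l higher. For Rps27l the call was lost without either line while the change stayed at -0.50 and -0.49, and for Rps15a the change without 595sp was -0.37. With a line left out the arm has 1 line, which is assumed to vary like the others. Without either resistant line, which shares the estimate of the spread, Rps15a alone was called, and 0 members were called in a model without the cell line. Rps27l passed in 6 of 15 alternatives and Rps15a in 13 of 15, with the same sign in all 15 for both.

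Several large-subunit genes stood higher in both sensitive lines without passing, as did small-subunit genes such as Rps12 (0.136 and 0.208 at 24 h). At 24 h 19 of 54 members were higher in both lines, where 38.4% of all genes were, and 9 were lower in both, where 28.5% were. The count of those higher is near the share of all genes and is no result about the members. Rpl12, beside the stalk base, was at 13.91 and 14.08 untreated in 595sp and 638bm, and at 14.30 and 14.40, and 14.53 and 14.39, on the 24 h arrays. All 4 of these arrays were above both untreated ones. Its change of 0.41 ± 0.16 did not pass (adjusted p = 0.0713), and it passed in 4 of 15 alternatives. Rpl4, whose protein lines the exit tunnel, was at 0.45 ± 0.17 at 16 h (adjusted p = 0.12) and 0.31 ± 0.17 at 24 h (adjusted p = 0.209). Rpl29, Rpl19 and Rpl30 were at 0.27 ± 0.17, 0.23 ± 0.15 and 0.20 ± 0.17 at 24 h. On the other side, among members lower in both lines, Rpl9, Rps26 and Rps2 were at -0.13 ± 0.14, -0.13 ± 0.16 and -0.12 ± 0.16. At 8 h Rps15 was at -0.37 ± 0.16 (adjusted p = 0.203) and Rpl7a at -0.30 ± 0.16 (adjusted p = 0.309).

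In the resistant lines no member passed at any time. At 2 h 0 of 54 were called by limma against 1.24% of all genes, with 0 at an unadjusted p under 0.05. At 8 h the count was 0 against 4.07%, with 1 at an unadjusted p under 0.05. At 16 h it was 0 against 1.39%, and at 24 h 0 against 1.51%, with 3 at an unadjusted p under 0.05 at each of these times. These shares of all genes are small, so that a count of 0 among 54 differs little from the background. The SD of the changes at 24 h was 0.175 over the members and 0.340 over all genes. The 95% interval lay within 1 log2 unit of 0 for 52 of 54 members at 8, 16 and 24 h, all but Rpl22 and Rpl3l.

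Rpl22 had the largest change of the members in the resistant lines at 16 and 24 h. It encodes a large-subunit protein that mice can live without and whose loss impairs their αβ T cells. In 595sp VR its log2 level was 10.80, 10.36, 10.08 and 10.07 from 0 to 16 h, and 9.85 and 9.93 at 24 h. In 638bm VR it was 11.66, 11.50, 11.26 and 10.95, and 10.89 and 10.84 at 24 h. All arrays under drug were below the untreated array of their line. The change was -0.56 ± 0.22 at 8 h (adjusted p = 0.177), -0.72 ± 0.22 at 16 h (adjusted p = 0.127) and -0.85 ± 0.22 at 24 h (adjusted p = 0.0696), and none passed. The 2 lines gave -0.90 (595sp VR) and -0.80 (638bm VR) at 24 h. The changes in 595sp VR run from 1 untreated array with a log2 background of 5.45. It was 6.13 to 6.19 on that line's first arrays under drug, and its part in these changes was not tested.

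The sensitive lines gave Rpl22 another course. In 595sp it was at 9.54, 9.72, 9.19 and 9.42 from 0 to 16 h, and 9.47 and 9.27 at 24 h. In 638bm it was at 10.96, 11.04, 11.34 and 11.77, and 11.32 and 11.55 at 24 h. 638bm was above its untreated array at all later times, and 595sp lay below its own at 8, 16 and 24 h. The resistant minus the sensitive change was -1.06 ± 0.31 at 16 h (adjusted p = 0.257) and -1.002 ± 0.31 at 24 h (adjusted p = 0.118), and neither passed. With each arm fitted alone, or without either sensitive line, Rpl22 was the 1 member called lower in the resistant lines at 8, 16 and 24 h. Without 595sp it was also called in the difference at 16 and 24 h.

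Rpl24, the large-subunit gene whose mutation in mice slows protein synthesis and Myc-driven lymphoma, had the next largest change at 16 h. In 595sp VR it was at 13.66, 13.39, 13.29 and 13.05 from 0 to 16 h, and 13.26 and 13.47 at 24 h. In 638bm VR it was at 12.97, 12.82, 12.71 and 12.47, and 12.53 on both 24 h arrays. All arrays under drug were below the untreated array of their line. The change was -0.56 ± 0.16 at 16 h (adjusted p = 0.105) and -0.37 ± 0.16 at 24 h (adjusted p = 0.309), and neither passed. It was called at 16 h without background correction, with the authors' processed values and with an offset of 50. In 595sp VR the changes of Rpl24, too, run from the untreated array with the lower background. At 24 h Rpl3l, dim in these lines, was at -0.47 ± 0.29 (adjusted p = 0.509) and Rps13, of the small subunit, at -0.37 ± 0.15 (adjusted p = 0.281). Higher in both resistant lines at 24 h were Rpl12 at 0.19 ± 0.16 and Rpl37 at 0.13 ± 0.16. Rpsa was at 0.15 ± 0.18, at a level near background.

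**Figure D2:**
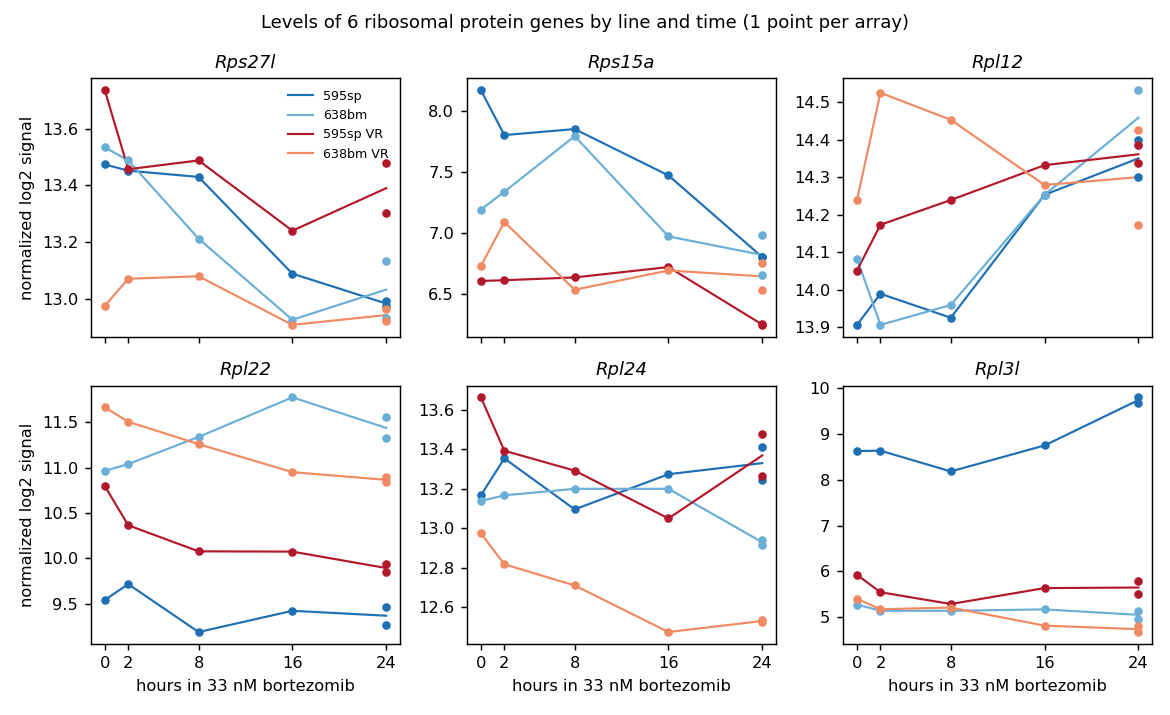
Normalized log2 signal (y axes, which do not start at 0) against hours in 33 nM bortezomib for 6 members in 4 lines. Points are arrays and lines join the means of each time. Rps27l and Rps15a are lower at 24 h than untreated in both sensitive lines (blue), Rpl22 and Rpl24 are lower in both resistant lines (red), Rpl12 is higher in both sensitive lines, and Rpl3l stands at 8.18 to 9.79 in 595sp alone.

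The difference of the responses had 0 called members at every time. No gene at all was called at 2, 8 and 16 h (0% of 10970), and at 24 h 1.26% of all genes were. Unadjusted, 0, 0, 3 and 3 members had a p under 0.05 at 2, 8, 16 and 24 h. The median difference over the members was -0.10 at 16 h and -0.10 at 24 h, and over all genes -0.03 and -0.06. These comparisons reuse the arrays of both arms. At 24 h Rpl3l (-0.91 ± 0.41), Rps13 (-0.53 ± 0.22), Rpl24 (-0.35 ± 0.23) and Rpl35 (-0.33 ± 0.21) were with Rpl22 on the negative side, and none passed.

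Summed over the members, both arms kept nearly the same level, with a small move apart. The members' share was taken of the background-corrected signal summed over the probes above background on at least 2 arrays, before normalization between arrays. It was 7.004% in untreated 595sp, then 7.14%, 7.10% and 7.88% at 2, 8 and 16 h, and 7.36% and 7.06% at 24 h. In 638bm it was 6.98%, then 7.01%, 7.04% and 7.29%, and 7.21% and 7.37% at 24 h. All arrays of both sensitive lines under drug were above the untreated array of their line on this measure. As a share of the uncorrected signal of all probes they were not. That share was 5.83% in untreated 595sp, 5.74% at 8 h and 5.79% on the second 24 h array. In 638bm it was 5.73% untreated and 5.71% at 8 h. The 2 measures differ in the probes summed as well as in background correction, and which of these mattered was not tested. In 595sp VR the background-corrected share was 7.38%, then 6.88%, 6.58% and 6.40%, and 6.60% and 6.83% at 24 h. In 638bm VR it was 7.83%, then 7.46%, 7.60% and 7.29%, and 7.06% and 7.24% at 24 h. All arrays of both resistant lines under drug were below the untreated array of their line on both measures.

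This move was not tested. The 2 arrays at 24 h of 595sp, 7.36% and 7.06%, differ by more than that line's mean change at 24 h of 0.204 percentage points. Their log2 backgrounds were 5.45 and 5.97, and what part that had was not tested. In 595sp VR the background was higher on the first arrays under drug, as given above, and its part in the result was not tested. In 638bm VR, where the background stayed within 5.86 and 5.98, the changes were -0.366, -0.227, -0.542 and -0.678 percentage points. On the normalized scale the mean log2 of the members changed by 0.04 at 16 h and 0.04 at 24 h in the sensitive lines, and by -0.08 and -0.07 in the resistant lines. Members' medians at 24 h were 0.05 and -0.06, with 0.06 and 0.01 over all genes. In the sensitive lines the members' median lay just below that of all genes, and under median scaling it lay above it (0.147 against 0.102).

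**Figure D3:**
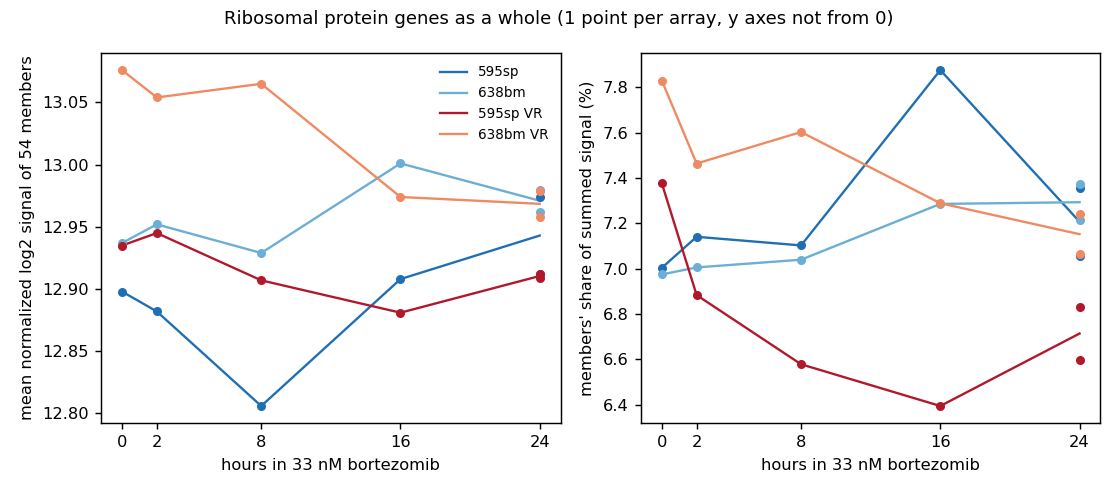
Mean normalized log2 signal of the 54 members (left) and their share of the summed background-corrected signal in percent (right) against hours in 33 nM bortezomib. Points are arrays and lines join means of each time, and neither y axis starts at 0. The share lies between 6.40 and 7.88%, above the untreated array in the sensitive lines (blue) and below it in the resistant lines (red).

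Before treatment, each resistant line was set against its parent, in a fit that holds the pair and the arm at each time. The fit draws its error mainly from the treated arrays of these 4 lines, so the errors printed are too small for genes on which the pairs differ. Of 54 members 0 were called, against 5.75% of all genes, and 5 had an unadjusted p under 0.05. Rpl21, of the large subunit, was at 7.46 in 595sp and 8.19 in 595sp VR, and at 8.17 in 638bm and 8.77 in 638bm VR. It was higher in the resistant line of each pair, by 0.67 ± 0.18 (adjusted p = 0.0535), and did not pass, while in 7 of 13 alternatives it did, with the same sign in all 13. Rpl35 was at 0.41 ± 0.14 (adjusted p = 0.12), Rpl22 at 0.98 ± 0.36 (adjusted p = 0.141) and Rplp0 at 0.47 ± 0.22 (adjusted p = 0.241).

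Rpl23, which binds Mdm2 when free of the ribosome, was at 14.79 in 595sp and 14.12 in 595sp VR, and at 14.63 in 638bm and 14.23 in 638bm VR. It was lower in the resistant line of each pair, by -0.54 ± 0.15 (adjusted p = 0.0611), and did not pass. With the mean of its 3 probes the value was 0.02. Rps15a was lower too, at 8.17 and 6.61 in the 595sp pair and 7.19 and 6.73 in the 638bm pair. Its difference of -1.01 ± 0.30 did not pass (adjusted p = 0.0695). The median over the members was 0.11, against 0.09 over all genes. With median scaling these were 0.552 and 0.263, and 20 members were called, all higher in the resistant lines, where 11.3% of all genes were called.

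The pairs could also be followed through all 5 times, since each line has its own level. In the 595sp pair 19 members were higher in the resistant line at all 5 times and 9 lower (51.9% of members, against 52.4% of all genes). In the 638bm pair 13 were higher and 9 lower (40.7%, against 51.9%). In both pairs the same way were 8 members, Rpl14, Rpl21, Rpl28, Rpl31, Rpl35 and Rps4x higher and Rpl23 and Rps15a lower (14.8%, against 17.3%). Of these, Rpl14 was near background, above it on 0 of 6 arrays of 595sp and 4 of 6 of 595sp VR. Opposite ways in the pairs were 5, Rplp2, Rps13, Rps16, Rps27l and Rps6 (9.26%, against 11.5%). These shares are near those of all genes, apart from a lower one in the 638bm pair, a difference that was not tested. Rps13 was the clearest case of opposite ways: its median difference was -0.58 in the 595sp pair and 1.08 in the 638bm pair. Rpl13a, which in human cells also takes part in a translational control complex, was at 1.08 in the 638bm pair and 0.24 in the 595sp pair.

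**Figure D4:**
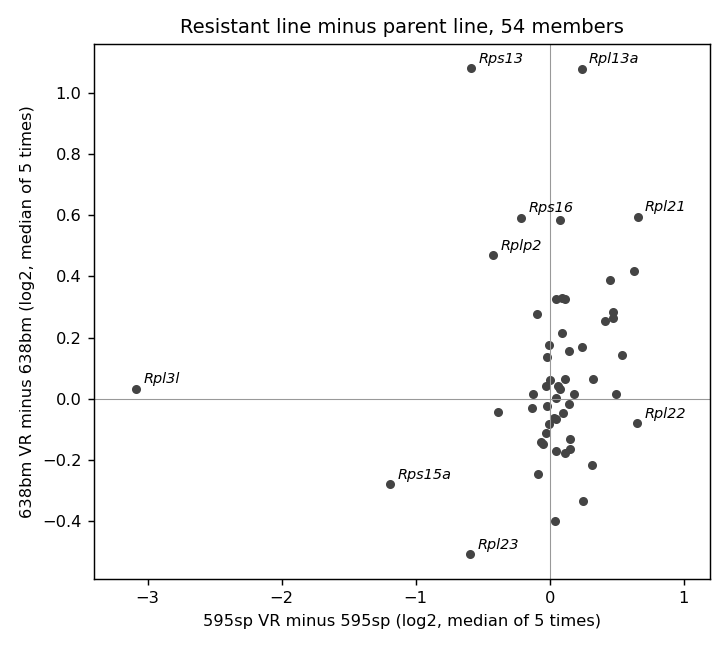
Resistant minus parent line, median of 5 times in log2 units, for the 595sp pair (x axis) and the 638bm pair (y axis), with 1 point for each of 54 members. Most points lie within 0.5 of 0 on both axes. Rpl3l is at -3.09 in the 595sp pair and 0.03 in the 638bm pair, Rps13 is at -0.58 and 1.08, and Rps15a and Rpl23 are negative in both.

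Rpl3l was the member that differed most between lines. It is the striated-muscle paralogue of Rpl3, a core protein near the peptidyl transferase centre. In 595sp its log2 level was 8.62, 8.63, 8.18 and 8.75 from 0 to 16 h, and 9.67 and 9.79 at 24 h, above background on 6 of 6 arrays. In 595sp VR it was 5.29 to 5.93, above background on 4 of 6 arrays. In 638bm and 638bm VR it was 4.97 to 5.28 and 4.68 to 5.403, above background on 0 of 6 arrays each. The 595sp arrays lay above all others. For each dim array the higher of its lowest level above background and the probe's own level was taken. The mean log2 level over the 5 times, with the 24 h arrays averaged first, gave 595sp at least 8.72-fold above 595sp VR. The fold was at least 10.2 over 638bm and at least 9.71 over 638bm VR. These folds describe 1 line against others, with no replicate of the line.

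Under bortezomib Rpl3l stood 1.11 higher at 24 h than untreated in 595sp, where both 24 h arrays lay above the other 4. Its change over both sensitive lines was 0.44 ± 0.29 and did not pass. In 638bm, where the probe was not above background, the value was -0.22. Without 638bm the change of 1.11 was called, on 1 line with 1 untreated array and a spread taken from the other lines. Rpl3 itself changed little, at -0.06 in 595sp and 0.10 in 638bm at 24 h.

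Across lines and times the members' median variation was below that of all genes. The median SD between the 4 lines' means was 0.161 over the members and 0.354 over all genes, and within lines over time 0.124 and 0.247. The line differences were the larger of these for 34 of 54 members (63%) and for 68% of all genes. Rpl3l (SD between lines 1.77), Rpl22 (0.890), Rpl21 (0.591), Rps15a (0.478) and Rplp0 (0.476) led the members. The 2 arrays of a line at 24 h differed over the members by an SD of 0.134 to 0.181, and over all genes of 0.183 to 0.263.

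Other probes of the same gene did not always follow. Of 18 members with several probes above background, 11 had probes of both signs at 24 h in the sensitive lines and 8 in the resistant lines, where the changes themselves are near 0. The widest gap between probes of a gene in the change of a line at 8 or 24 h was 1.59 for Rps24, 1.42 for Rps13, 1.21 for Rplp0 and 1.15 for Rplp2, each with a dimmer second probe, and the narrowest 0.19 for Rps12. Rps27l, Rps15a, Rpl12, Rpl22, Rpl24 and Rpl3l each had only 1 probe under their symbol, so no second probe could be set beside their values.

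Beside the ribosomal proteins stand other genes of translation, whose counts carry no test of the lists. Of 23 initiation factors tested, 1 rose at 8 h, 4 at 16 h and 8 at 24 h in the sensitive lines, and 0 fell (median change 0.31 at 24 h, 0.06 over all genes). Of all genes 5.41% and 9.32% were called in either direction at 8 and 16 h, and 13.3% were called higher at 24 h. At 24 h these were subunits of the exchange factor eIF2B, Eif2b2 (1.35 ± 0.17, adjusted p = 8.77e-05), Eif2b4 (1.15 ± 0.19) and Eif2b1 (0.64 ± 0.17), then Eif2s2, Eif3a, Eif3c, Eif3d and Eif6. Eif6, which keeps free large subunits from joining small ones, rose by 1.04 ± 0.21 (adjusted p = 0.00216). In the resistant lines 2 rose at 8 h, Eif2b2 and Eif2b4, where 4.07% of all genes were called, and 0 at 24 h, where 1.51% were.

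The other lists had at most 1 call in each direction at 24 h, when 23.4% of all genes were called in either direction. These counts are therefore not results about the lists. Before 24 h in the sensitive lines, growth control had Rptor called higher at 8 h, and Rptor and Sesn2 at 16 h. Of all genes 5.41% and 9.32% were called at these times. Of 13 elongation factors and other mRNAs with pyrimidine tracts, 1 rose at 24 h in the sensitive lines, Eif3h, and 0 fell (median 0.03). In growth control, 1 of 11 genes rose at 24 h, Eif4ebp1, a repressor of cap-dependent translation, and 1 fell, the kinase gene Mtor, by 1.08 ± 0.24 on the log2 scale (adjusted p = 0.00421). In the list of the 5S particle and its p53 checkpoint, 1 of 6 rose, Mdm2 (0.66 ± 0.17, adjusted p = 0.0122), and 1 fell, Mdm4. Among 4 genes outside the rule that are named after ribosomal proteins, Rps19bp1, named as a binding protein of Rps19, rose by 0.88 ± 0.21 at 24 h. Rpl22l1, the paralogue of Rpl22, was at 0.69 ± 0.24 (adjusted p = 0.0502) in the sensitive and at 0.40 ± 0.24 (adjusted p = 0.495) in the resistant lines, and neither passed.

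Untreated, where 5.75% of all genes were called, the resistant lines had 1 initiation factor higher, Eif2b1, and 1 growth control gene, Deptor. Of the 13 elongation and pyrimidine-tract genes 1 was higher, Tpt1 (1.02 ± 0.27, adjusted p = 0.0485). Of the genes outside the rule named after ribosomal proteins 2 were higher, Rpl7l1 (0.96 ± 0.19) and Rps19bp1 (1.16 ± 0.27). None of the genes in these lists was called lower.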

How the data were processed

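RNA was amplified, biotin-labelled and read on Illumina bead arrays, per the labels' protocols. The deposited table holds 1 average signal intensity per probe and array, without normalization, detection p-values or control probes, for 45281 probes and 24 arrays. Values run from 31.94 to 38749.43. A table of the authors' processed values, intensities with a median of 64.4 on every array, served as an alternative.

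The deposited intensities were background-corrected with normexp (limma 3.58.1, R 4.3.3, offset 16), quantile-normalized and put on the log2 scale. A planned correction with control probes could not be run. The background of an array was the mode of its log2 signals, its SD was taken from the signals under the mode, and a probe counted as above it beyond 2.326 of these SDs. Of all probes 21546 did so on 2 or more arrays and were kept, and of a gene's probes the one with the highest mean was used. Gene symbols came from the platform annotation. The offset makes changes of dim genes smaller.

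Both 24 h arrays of a line were averaged, leaving 20 values. Responses were tested with limma in 1 model with cell line and arm by time (degrees of freedom: 8 residual, 7.68 prior). Each line runs through all times, so the line pairs the samples. The untreated comparison used origin and arm by time (9 residual and 2.93 prior) and asked both pairs to agree in direction. Genes were called at a Benjamini-Hochberg adjusted p under 0.05 over 10970 genes. Errors are standard errors of these fits.

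The members and gene lists were chosen with earlier results of these data known. Named genes were the called members, then up to 5 per direction by the change in the line that changed less, and fixed members such as the P stalk, Rps6, Rps3 and paralogues. On simulated data both tests returned the sizes of change put in, but seldom called small changes. The untreated test seldom called large ones either, so its few calls do not show that members were alike. The simulation changed a smaller share of genes than was called at 24 h in the sensitive lines, and drew noise independently for each value. Its call rates need not carry over to these data. The number of arrays limits the precision. Alternatives covered scaling, background, offset, filter, probes, lines, 24 h arrays, sample times and models.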

Additional observations from a re-analysis of the deposited data

Results flagged for a closer look

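The members' summed level went opposite ways in the arms. Their share of the kept probes' background-corrected signal was compared with that on the untreated array of the line. It was higher on all drug arrays of both sensitive lines and lower on all of both resistant lines. The resistant minus the sensitive change was -0.513, -0.595, -1.354 and -0.931 percentage points after 2, 8, 16 and 24 h. On the normalized log2 scale the same held at 16 h (-0.113) and 24 h (-0.105). These differences were not tested. As share of the uncorrected signal of all probes, kept or not, the resistant lines were lower on all drug arrays too. On that measure 595sp at 8 h (5.74%) and on the second 24 h array (5.79%) lay below its untreated 5.83%, and 638bm at 8 h (5.71%) below 5.73%. The mean log2 at 8 h was lower in both sensitive lines (-0.092 and -0.008). The changes of a line at all times run from its 1 untreated array, and the untreated array of 595sp VR had a log2 background of 5.45 against 6.13 to 6.19 on that line's first arrays under drug. In 638bm VR, with a background of 5.86 to 5.98, the share changed by -0.366, -0.227, -0.542 and -0.678 percentage points at 2, 8, 16 and 24 h. What part the array had in the result was not tested.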

How the results depend on the processing

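Counts of called members at 16 h in the sensitive lines went from 0 to 1 (Rps27l, lower) with median scaling, without background correction, with the authors' processed values, with an offset of 50 and with probes of a gene averaged. At 24 h the count of 2 became 1 without a filter on dim probes, 1 with the second 24 h array alone and 1 with each arm alone. For the pairing by cell line, the fit with no replicate block gave 0 at 24 h. In the resistant lines each arm alone gave 1 (Rpl22, lower) at 8, 16 and 24 h, and at 16 h the count was 1 (Rpl24) without background correction, with the authors' values and with the offset of 50. In the untreated comparison the 0 became 20 with median scaling, 3 without background correction, 3 with the authors' values, 3 with the offset of 50 and 2 with the mean of probes. Leaving out 1 line at a time gave 0 to 1 called members at 16 h and 0 to 2 at 24 h in the sensitive lines, 0 to 1 at 8, 16 and 24 h in the resistant lines, 0 to 1 and 0 to 2 for the difference at 16 and 24 h, and 2 to 8 untreated. Single changes that reversed were Rpl3l at 24 h in the sensitive arm without 595sp (-0.225, and up to 1.111 over the lines left out), Rpl22 there without 638bm (-0.173, and up to 0.474) and untreated Rpl23 with the mean of probes (0.023). At 16 and 24 h the mean log2 change of the members kept its sign in each line with median scaling, without background correction and with the authors' values. At 8 h it was -0.092 and -0.008 in the sensitive lines, where the share of signal changed by 0.099 and 0.066 percentage points, and in 638bm VR it was -0.01, and 0.064 with median scaling. With median scaling and as share of signal on the log2 scale the mean change was 0.083 and 0.116 at 16 h and 0.118 and 0.053 at 24 h in the sensitive lines, and -0.168 and -0.155, and -0.142 and -0.133, in the resistant lines. The cause of these shifts was not tested. The times of the timepoint characteristic changed no count of called members. Members' medians at 16 and 24 h kept their sign in each arm in all settings run.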
